A study of Mus musculus with 27 samples.

Results

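The Cyp2b and Cyp3a families of cytochrome P450 enzymes were followed across the zones of the liver lobule in pregnancy through 9 genes, Cyp2b9, Cyp2b10, Cyp2b13, Cyp3a11, Cyp3a13, Cyp3a16, Cyp3a25, Cyp3a41a and Cyp3a44. These 9 genes of the 21823 in the expression table were chosen by symbol, as targets of the nuclear receptors CAR and PXR, with earlier results of these data known. All 9 reached 1 FPKM (fragments mapped to a gene, scaled to transcript length and library depth) in at least 3 libraries and were thus among the 12952 genes tested.

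The livers came from wild-type C57BL/6 females, which the study's methods describe as C57BL/6N mice, virgin before the experiment and 8 to 14 weeks old. Its reporting summary gives a wider range of ages. Livers came from a non-pregnant group (NP) and from pregnant groups named dpc8 and dpc16 by the days post coitum, and no agent was given to any group. From sections of 5 µm, areas of 2 mm2 of zone 1, zone 2 and zone 3 were cut out under the microscope with a laser, and RNA with an integrity number over 7 was sequenced after ribosomal depletion. Each of the 9 groups of stage and zone held 3 libraries. The study describes 3 independent experiments, numbered in the titles, but the labels do not tie libraries to animals, so the p-values below measure the spread between these libraries.

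CAR (Nr1i3) and PXR (Nr1i2) are receptors for foreign chemicals, bile acids and steroids that bind DNA together with RXR and switch on enzymes of drug and steroid clearance. Cyp2b10 and Cyp3a11 are their best known hepatic targets in the mouse. Cyp2b9, Cyp2b13, Cyp3a16, Cyp3a41a and Cyp3a44 are known as female-predominant genes of the adult mouse liver, whose levels also follow the pattern of growth hormone secretion. Foreign-compound metabolism is known to be concentrated around the central vein, in zone 3, while zone 1 borders the portal vein.

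The members are close copies, which bears on what a read can tell. The 3 Cyp2b genes lie on chromosome 7 between positions 25897620 and 26210661 of the mm10 build, and the Cyp3a genes lie on chromosome 5, with Cyp3a13 apart from the other 5 members. The 250 bases upstream of Cyp2b9 and Cyp2b13 were 99.2% identical, with 248 of 250 bases in common. They are shown because these neighbours changed to different extents in these data, and are printed from the RefSeq promoter table (GRCm38.p6), 5′ to 3′, at chr7:26173159-26173408 and chr7:26061245-26061494, both on the plus strand, and capitals mark the 2 bases that differ.

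Cyp2b9: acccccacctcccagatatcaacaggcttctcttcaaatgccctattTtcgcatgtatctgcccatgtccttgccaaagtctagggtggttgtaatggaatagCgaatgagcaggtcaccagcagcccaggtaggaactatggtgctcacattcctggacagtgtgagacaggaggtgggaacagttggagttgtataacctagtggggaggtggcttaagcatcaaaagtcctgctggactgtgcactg
Cyp2b13: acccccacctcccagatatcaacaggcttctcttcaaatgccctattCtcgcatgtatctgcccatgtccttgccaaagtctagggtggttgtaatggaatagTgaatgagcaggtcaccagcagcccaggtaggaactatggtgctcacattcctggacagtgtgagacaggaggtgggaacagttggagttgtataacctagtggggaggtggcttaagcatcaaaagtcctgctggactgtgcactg

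Cyp3a44, Cyp3a41a and Cyp3a16 were the Cyp3a members called between stages or zones in the limma fit below. Their upstream sequences were alike, and a link between sequence and change was not tested. Over 250 bases, Cyp3a44 was 94.4% identical to Cyp3a41a and 92.9% to Cyp3a16, whereas Cyp3a11 shared 72.1% to 76.6% with these genes. The 120 bases next to the RefSeq start are shown for these 3 members and for Cyp3a41b, the near-identical neighbour of Cyp3a41a. All 4 lie on the minus strand of GRCm38.p6, at chr5:145805875-145805994, chr5:145720137-145720256, chr5:145584731-145584850 and chr5:145469724-145469843 in the order printed, and capitals mark bases that differ from Cyp3a44 or have no partner there.

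Cyp3a44: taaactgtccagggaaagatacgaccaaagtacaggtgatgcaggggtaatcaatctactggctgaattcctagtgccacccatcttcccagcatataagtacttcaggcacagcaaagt
Cyp3a41a: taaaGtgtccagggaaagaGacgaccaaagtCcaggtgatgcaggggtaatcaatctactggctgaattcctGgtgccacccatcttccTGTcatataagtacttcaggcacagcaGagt
Cyp3a41b: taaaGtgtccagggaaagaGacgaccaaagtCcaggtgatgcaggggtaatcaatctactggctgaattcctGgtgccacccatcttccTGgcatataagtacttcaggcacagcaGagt
Cyp3a16: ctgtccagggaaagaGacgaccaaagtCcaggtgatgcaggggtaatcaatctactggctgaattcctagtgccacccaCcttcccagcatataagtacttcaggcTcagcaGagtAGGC

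Short motifs were searched on both strands in the 250 upstream bases of all 9 members and of all 27025 promoters in the table. AGGTCA, the core hexamer of many nuclear receptor sites, occurred in 5 members (Cyp2b9, Cyp2b13, Cyp3a11, Cyp3a25 and Cyp3a44) and in 13.8% of all promoters. Its variant AGTTCA occurred in Cyp3a11 and Cyp3a41a and in 11.9% of all promoters. Direct repeats of AGTTCA with 3 or 4 bases between, TGAACT followed after 6 bases by AGGTCA, and the STAT motif TTCNNNGAA occurred in 0 of the 9 members within this window. In all promoters the repeats with 3 bases and with 6 bases occurred in 0, the repeat with 4 bases in 3, and TTCNNNGAA in 7.18%. The spaced repeats contain the hexamers counted above. These matches describe letters in a window and not sites of binding.

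Reads of 86 bases could not always be assigned to 1 gene. Of the 86-base windows of the Cyp3a41a transcript, 93.7% also occurred in another GENCODE vM21 transcript, 1776 of 1975 of them in Cyp3a41b, so a uniquely mapped read could come only from the remaining 6.28%. The share was 12.3% for Cyp2b13, 8.31% for Cyp3a44, 8.3% for Cyp3a25, 3.35% for Cyp2b9, 2.12% for Cyp3a11, 0.973% for Cyp3a16, 0.874% for Cyp2b10 and 0 for Cyp3a13. The open reading frames of Cyp3a41a and Cyp3a41b differed at 2 of 1515 positions, written G120A and G336T with the Cyp3a41a base first and positions counted from 1 at the first base of the frame. The windows around them are printed, with the differing base in capitals.

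Cyp3a41a around position 120: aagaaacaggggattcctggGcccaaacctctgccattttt
Cyp3a41b around position 120: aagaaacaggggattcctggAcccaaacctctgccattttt
Cyp3a41a around position 336: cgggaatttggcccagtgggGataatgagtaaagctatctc
Cyp3a41b around position 336: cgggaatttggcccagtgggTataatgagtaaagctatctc

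The split between these 2 genes is therefore uncertain, and Cyp3a41a results are also given for the sum of Cyp3a41a and Cyp3a41b, a setting added once the values were known.

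Zones 1 and 3 were separate in their zone markers at every stage. In NP mice, 9 periportal marker genes summed to 5865 to 9506 FPKM in zone 1 and 1346 to 2990 in zone 3, and 10 pericentral markers to 542 to 840 and 13619 to 19081. At dpc16 the periportal sums were 5774 to 7290 in zone 1, 939 to 3665 in zone 2 and 296 to 1154 in zone 3, so that zone 2 lay below its NP range of 4843 to 6729 and overlapped that of NP zone 3. The pericentral sums of zone 2 were also lower, at 1189 to 2478 against 3977 to 6212 in NP mice. Averaged over zones, the dpc16 test against NP gave 6 of 9 periportal markers lower (median log2 fold change -1.06), 3 of 10 pericentral markers lower and 1 higher (-0.67), 4 of 8 hepatocyte markers higher and 1 lower (0.82), and 3 of 6 Kupffer cell markers lower (-0.69), and the part of these shifts in the members' changes was not tested. However, 6 libraries stood apart. They were replicate 1 of zone 1 in NP and dpc8 mice, replicate 2 of zone 3 in NP mice and of zone 2 at dpc8, and replicate 3 of zones 2 and 3 at dpc16. In these, 4 Y-linked genes summed to 7.92 to 23.2 FPKM, against 0 to 2.97 in the 21 others, although all mice are labelled female. The mean log2 level of 12 connective tissue and smooth muscle markers was 4.82 to 6.37 in the 6 libraries and 1.08 to 4.1 in the others, and the members' calls that were gained or lost without these libraries are given below. The summed FPKM per library was 523854 to 988500 at dpc16 and 499866 to 704327 in NP mice. At dpc16, replicate 3 of zones 2 and 3 held 523854 and 573644, and the other libraries held 834568 to 988500. In bulk tissue, fewer cells of a type and less RNA per cell cannot be told apart.

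**Figure D1:**
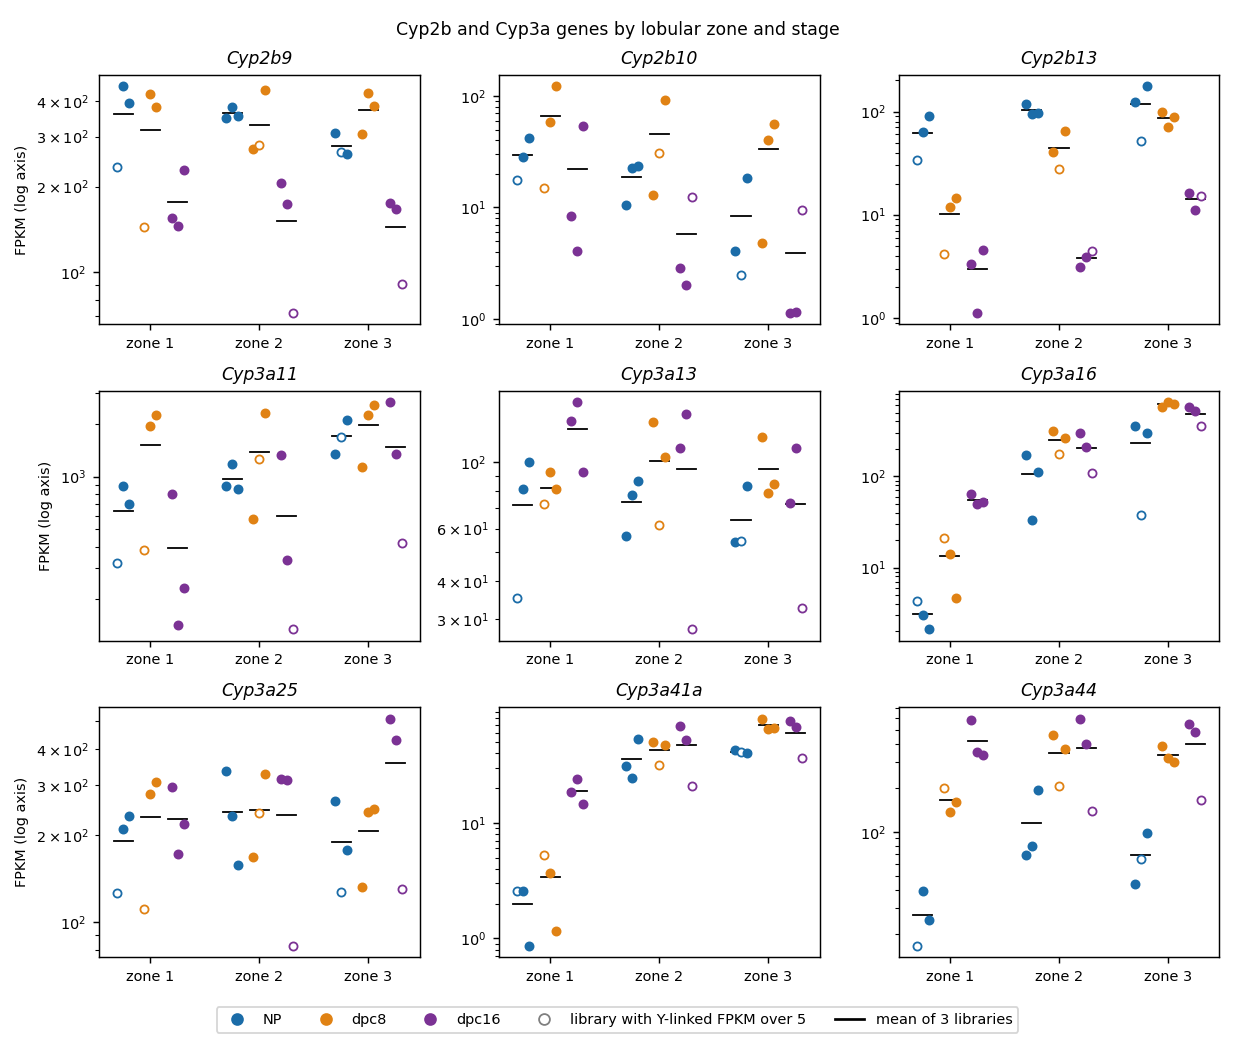
FPKM on a log axis (vertical) of each of the 9 genes in zones 1, 2 and 3 (horizontal), with 1 point per library, colours for NP, dpc8 and dpc16, bars for the mean of 3 libraries and open points for the 6 libraries with over 5 FPKM of Y-linked genes. Cyp2b13 fell from 33.7 to 177 FPKM in the NP libraries to 1.11 to 16.4 at dpc16, and Cyp3a44 lay at 16.6 to 39.2 in NP zone 1 and at 333 to 578 in dpc16 zone 1.

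Cyp3a11, the major Cyp3a enzyme of the mouse liver, had the highest FPKM of the 9 genes in 23 of 27 libraries, from 135 to 2651 with a median of 1140. Cyp2b9 (median 272), Cyp3a25 (235), Cyp3a44 (198) and Cyp3a16 (173) followed, and Cyp3a13 (83.4), Cyp2b13 (33.7) and Cyp2b10 (14.9) were lower. Cyp3a41a (36.2) is left out of this order, because its uniquely mapped reads could come from only 6.28% of its windows and its FPKM may understate its level. These medians pool all 27 libraries, and the order differed within groups: in NP zone 1 the mean of Cyp3a16 (3.14 FPKM) lay below those of Cyp2b10 (29.4) and Cyp2b13 (62.3), and in dpc16 zone 1 that of Cyp3a44 (422) lay above those of Cyp3a11 (393) and Cyp2b9 (177). Since 1 read was worth 0.0109 to 0.0869 FPKM for these transcripts, depending on library and gene, even the lowest value, 0.863 FPKM of Cyp3a41a in NP zone 1 replicate 3, rested on several reads.

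Whether the lobule changes with pregnancy was examined first by setting each zone at dpc16 against the same zone in NP mice. Cyp2b13, a female-predominant enzyme, fell in all 3 zones. Cyp3a44 rose in zones 1 and 3, and Cyp3a16 and Cyp3a41a rose in zone 1, while Cyp2b9 was lower without overlap in each zone and passed the test when the 3 zones were averaged. The other members, Cyp2b10, Cyp3a11, Cyp3a13 and Cyp3a25, passed the test in no zone. Of the 9 members, 4 passed in zone 1, 1 in zone 2 and 2 in zone 3, where 1.37%, 2.66% and 1.32% of all genes tested passed. Without overlap between the 3 libraries of each group, 3 members were higher and 2 lower in zone 1 (9.42% and 8.01% of all genes), 2 were lower in zone 2 (9.59%), and 1 was higher and 2 lower in zone 3 (7.84% and 8.87%).

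Cyp2b13 measured 33.7, 63.8 and 89.5 FPKM in the NP zone 1 libraries and 3.32, 1.11 and 4.55 at dpc16. In zone 2 it measured 119, 95.5 and 97.1 in NP mice and 3.14, 3.88 and 4.47 at dpc16, and in zone 3 it measured 125, 51.3 and 177 against 16.4, 11 and 15.1. Every dpc16 library thus lay below every NP library of its zone, and the means were 20.8, 27.2 and 8.32 times lower. The log2 fold changes, here and below on the log2(FPKM + 1) scale with the SE, were -3.99 ± 0.45, -4.44 ± 0.45 and -2.82 ± 0.45, with limma adjusted p = 1.11e-05, 4.08e-06 and 0.00108. Without the 6 libraries that stood apart they were -4.37, -4.54 and -3.38. The zone 3 call was lost when only the groups compared were fitted.

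Cyp2b9, the neighbour with nearly the same upstream sequence, had smaller differences. It measured 234, 452 and 392 FPKM in NP zone 1 and 155, 145 and 229 at dpc16, and in zone 2 it measured 350, 380 and 355 against 207, 174 and 71.7. In zone 3 the values were 308, 264 and 261 in NP mice and 175, 166 and 90.5 at dpc16. NP and dpc16 libraries did not overlap in any zone, with means 2.04, 2.4 and 1.93 times lower, but no single zone passed the test, with adjusted p = 0.313 in zone 1 and 0.0636 in zone 2. Averaged over zones, Cyp2b9 fell by 1.13 ± 0.23 on the log2 scale (limma adjusted p = 0.002). Without the 6 libraries the changes in zones 1 and 2 were -1.28 (adjusted p = 0.00298) and -0.93 (0.022), and with FPKM rescaled to a common sum per library, zones 1, 2 and 3 all passed.

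The 2 neighbours were also compared with each other. The log2 difference of Cyp2b13 from Cyp2b9 averaged -1.92 in NP mice, -3.28 at dpc8 and -4.54 at dpc16, values given as a description because the pair was picked after its changes were known. By zone, the difference at dpc16 was -5.56 in zone 1, -4.85 in zone 2 and -3.22 in zone 3, and in NP mice it was -2.56, -1.79 and -1.40.

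Cyp3a44, a female-predominant Cyp3a enzyme, rose from a low level. It measured 16.6, 39.2 and 24.8 FPKM in NP zone 1 and 578, 353 and 333 at dpc16, and 44.1, 65.3 and 98.1 against 546, 483 and 166 in zone 3. In zone 2 it measured 69.4, 80.3 and 194 in NP mice and 596, 397 and 138 at dpc16. The groups were separate in zones 1 and 3 and overlapped in zone 2, where the lowest dpc16 library was 1 of the 6 that stood apart. The means were 15.7, 3.29 and 5.75 times higher in zones 1, 2 and 3. The log2 fold changes were 3.96 ± 0.51 in zone 1 (adjusted p = 6.58e-05), 1.63 ± 0.51 in zone 2 (0.0961) and 2.41 ± 0.51 in zone 3 (0.0154). Without the 6 libraries they were 3.67, 2.23 and 2.94 and passed in all 3 zones. The zone 3 call did not survive leaving out NP zone 3 replicate 1, dpc16 zone 3 replicate 1 or dpc16 zone 3 replicate 2, with values of 2.09 to 2.95 over the 27 fits that left out 1 library each, and it was also lost when only the groups compared were fitted (adjusted p = 0.16).

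Cyp3a16 and Cyp3a41a, further female-predominant enzymes, rose in zone 1, where both had been near the bottom of their range. Cyp3a16 measured 4.26, 3.05 and 2.1 FPKM in NP zone 1 and 64.7, 49.8 and 52 at dpc16. Cyp3a41a measured 2.56, 2.57 and 0.863 in NP zone 1 and 18.3, 23.7 and 14.4 at dpc16. Neither gene's groups overlapped. The means were 17.7 and 9.43 times higher, with log2 fold changes of 3.80 ± 0.66 (limma adjusted p = 0.00226) and 2.76 ± 0.42 (0.000492). The sum of Cyp3a41a and Cyp3a41b gave 3.04 (adjusted p = 0.000461) in the same zone. In zone 3 Cyp3a16 measured 359, 37.5 and 296 in NP mice and 573, 521 and 354 at dpc16, ranges that met, and the test did not call it there.

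**Figure D2:**
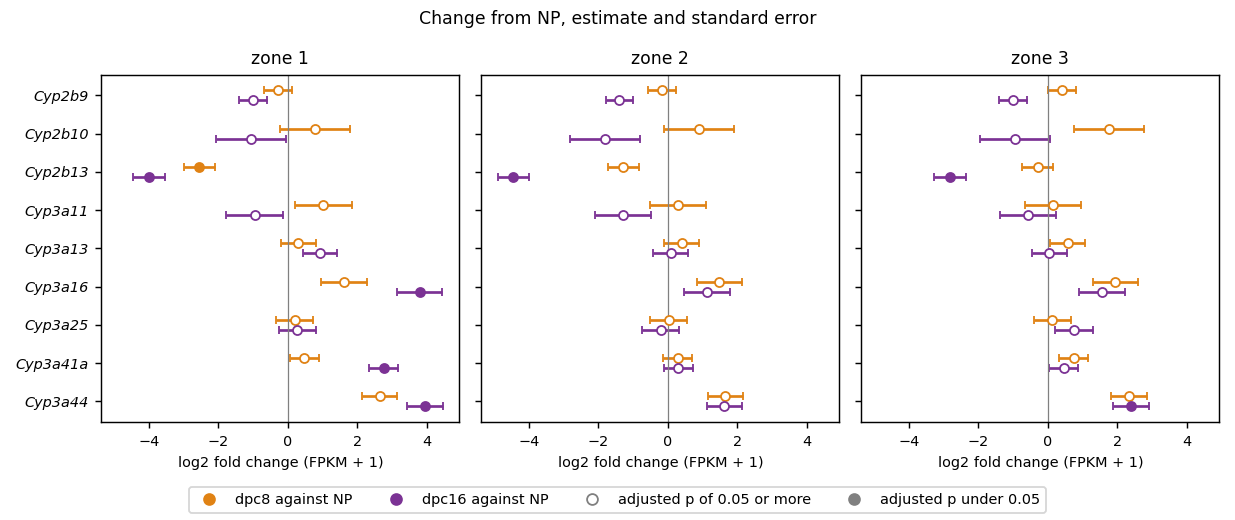
Log2 fold change on the FPKM + 1 scale (horizontal) of each gene (vertical) at dpc8 and dpc16 against NP, 1 panel per zone, with points for estimates, bars for the standard error and filled points for an adjusted p under 0.05. The filled points are Cyp2b13 at dpc16 in every zone and at dpc8 in zone 1, Cyp3a44 at dpc16 in zones 1 and 3, and Cyp3a16 and Cyp3a41a at dpc16 in zone 1.

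Averaged over zones, 5 of the 9 members passed at dpc16, where 11.8% of all genes did. Cyp3a44 (log2 fold change 2.66 ± 0.30, limma adjusted p = 1.83e-06), Cyp3a16 (2.16 ± 0.38, 0.000489) and Cyp3a41a (1.17 ± 0.24, 0.00215) rose. The change of Cyp3a41a was 0.30 in zone 2 and 0.46 in zone 3 (limma adjusted p = 0.773 and 0.796), against 2.76 in zone 1. Cyp2b13 (-3.75 ± 0.26, 2.38e-09) and Cyp2b9 fell. All 5 also passed with a replicate block within stage and in all 27 fits without 1 library. Cyp3a11 measured 801, 143 and 234 FPKM in dpc16 zone 1 and 2651, 1349 and 417 in zone 3, a spread within which its averaged change of -0.94 ± 0.47 (adjusted p = 0.228) did not pass, although it passed after rescaling to a common sum (-1.33, 0.0177) and with the connective tissue covariate (-1.15, 0.0185). Cyp2b10, at -1.27 ± 0.58 (0.182), passed only without the 6 libraries (-2.01, adjusted p = 0.0322), with array weights (-1.97, 0.00527) or with the replicate number as a fixed term (-1.27, 0.0126). Cyp3a13 and Cyp3a25 had averaged changes of 0.35 and 0.28, and both changed sign, to -0.04 and -0.12, when FPKM were rescaled to a common sum, a rescaling that moved the median of all genes to -0.33. In the other direction, Cyp3a13 passed as higher without the 6 libraries (0.57, adjusted p = 0.0294) and with array weights (0.64, 0.0206).

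The change was already partly visible at dpc8, in mid-pregnancy. Averaged over zones, Cyp3a44 rose by a log2 fold change of 2.21 ± 0.30 (limma adjusted p = 0.000848), and Cyp2b13 changed by -1.37 ± 0.26 (0.0402). These were 2 of the 9 members, against 0.108% of all genes, since 14 genes passed in all. Cyp2b13 is a fragile call: with a replicate block within stage its adjusted p was 0.243, and 16 of the 27 fits without 1 library lost it, whereas Cyp3a44 passed in each of those fits.

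In zone 1 at dpc8, Cyp2b13 measured 4.19, 11.9 and 14.4 FPKM, against 33.7, 63.8 and 89.5 in NP mice, with no overlap. Its log2 fold change of -2.54 ± 0.45 (adjusted p = 0.0417) was the 1 call among the 9 members in a single zone, where 0.0309% of all genes passed, and 19 of the 27 fits without 1 library lost it. Without the 6 libraries it passed at -2.44 (adjusted p = 0.0165). In zones 2 and 3 at dpc8 it measured 40.7, 27.8 and 65.4 and 98.2, 71 and 88.6, and the zone 3 values lay within the NP range.

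Cyp3a44 measured 198, 137 and 161 FPKM in dpc8 zone 1, 461, 205 and 370 in zone 2 and 385, 323 and 303 in zone 3. All of these were above the NP libraries of the same zone, with means 6.16, 3.01 and 4.87 times higher. No zone passed alone, with adjusted p = 0.0985, 0.863 and 0.53, although zone 1 passed with a replicate block within stage (2.64 ± 0.48, adjusted p = 0.0402) and zone 3 without the 6 libraries (2.33, 0.0333). Cyp3a16 likewise did not overlap in any zone, with 21.1, 14 and 4.7 FPKM in dpc8 zone 1, 316, 174 and 263 in zone 2 and 581, 649 and 626 in zone 3. Its averaged change was 1.68 ± 0.38 (adjusted p = 0.113), and it passed with array weights (1.73, 0.0118), with the replicate number as a fixed term (1.68, 0.0475) and with the connective tissue covariate (1.69, 0.0388). In zone 1, 2 members were higher and 1 was lower without overlap, against 3.6% and 2.92% of all genes. In zone 2 the counts were again 2 and 1, against 4.29% and 5.76%, and in zone 3 the 3 members Cyp3a16, Cyp3a41a and Cyp3a44 were higher, against 4.74%.

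Cyp2b10, the classical CAR target, had the widest spread of the members between libraries of 1 group on the log2 scale, with an SE of 1.01 per zone comparison. At dpc8 it measured 14.9, 59 and 124 FPKM in zone 1, 13, 31 and 93.3 in zone 2 and 4.82, 40.5 and 55.9 in zone 3. At dpc16 the values were 8.33, 4.09 and 54.3, then 2.86, 2.03 and 12.4, then 1.12, 1.15 and 9.41. The library numbered 3 was the highest of its group in all 9 groups, and the labels do not say whether libraries of 1 number share an animal. With that number as a fixed term, the dpc16 values were lower than those of dpc8 in zone 2 (-2.69, adjusted p = 0.0133) and zone 3 (-2.72, 0.013), which did not pass in the limma fit without it (0.235 and 0.218). With array weights, zones 1, 2 and 3 all passed (-2.78, -3.23 and -3.77, adjusted p = 0.0454, 0.024 and 0.00105). Set against dpc8, the dpc16 mean over zones was lower by a log2 difference of -2.42 ± 0.58 (limma adjusted p = 0.00866). This call passed under every setting tried and ran from -2.76 to -2.18 when 1 library was left out. A fit without 1 library kept those of the same number in the other zones, and no fit reduced each number to 1 value. The call therefore may not fully allow for a spread shared by libraries of 1 number.

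Between dpc8 and dpc16, all 3 Cyp2b members fell when zones were averaged, where 5.69% of all genes fell, and no Cyp3a member passed in the limma fit of single genes. Cyp2b9 changed by -1.12 ± 0.23 (adjusted p = 0.00242) and Cyp2b13 by -2.38 ± 0.26 (1.95e-06). Cyp3a11 had a difference of -1.43 ± 0.47 (0.0519), which passed under quantile normalization (-1.64, 0.015), after rescaling to a common sum (-1.88, 0.00136) and with array weights (-1.37, 0.00633). Cyp3a41a passed as higher when summed with Cyp3a41b (0.93, 0.0243), without the 6 libraries (0.98, 0.00348), with array weights (0.93, 0.000335) and with the replicate number as a fixed term (0.67, 0.0469). Cyp3a44 passed as higher without the 6 libraries (0.77, 0.0322) and with array weights (0.72, 0.00809). In single zones, Cyp3a41a was higher in zone 1 (2.28 ± 0.42, adjusted p = 0.00449), also as the sum with Cyp3a41b (2.40, 0.0067), and Cyp2b13 was lower in zone 2 (-3.17, 0.000363) and zone 3 (-2.52, 0.00353). These are 1 member in each zone, against 2.01%, 1.51% and 1.37% of all genes. When only the groups compared were fitted, 1 such call passed, Cyp2b13 in zone 3. Without the 6 libraries 9 passed, the gains being Cyp2b9 (-1.22), Cyp2b13 (-1.93), Cyp3a11 (-2.80), Cyp3a16 (2.60) and Cyp3a44 (1.45) in zone 1 and Cyp2b9 (-1.10) in zone 3.

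Zonation was then read by setting zone 1 against zone 3 within each stage. Cyp3a16 was lower in zone 1 at all 3 stages, Cyp3a41a in NP mice and at dpc8, and Cyp2b13 at dpc8 and dpc16. The test called 2 of the 9 members in NP mice, 3 at dpc8 and 2 at dpc16, where 1.34%, 1.61% and 1.55% of all genes passed, and no member was called higher in zone 1. Without overlap, 4, 4 and 3 members were lower in zone 1 at the 3 stages, against 6.05%, 10.5% and 6.39% of all genes.

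Cyp3a16 had the steepest gradient of the members. In NP mice it measured 4.26, 3.05 and 2.1 FPKM in zone 1 and 359, 37.5 and 296 in zone 3, a mean 73.7 times lower. The library at 37.5 is 1 of the 6 that stood apart, and without it the log2 difference was -6.34, while without NP zone 3 replicate 1 it was -4.73. At dpc8 the zone 1 mean was 46.7 times lower, and at dpc16, with 64.7, 49.8 and 52 against 573, 521 and 354, it was 8.7 times lower. No stage showed an overlap. The log2 differences were -5.31 ± 0.66 (limma adjusted p = 1.9e-05), -5.65 ± 0.66 (9.75e-06) and -3.08 ± 0.66 (0.0107). The dpc16 call was lost without dpc16 zone 1 replicate 2, zone 3 replicate 1 or zone 3 replicate 2, with values of -3.29 to -2.94.

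Cyp3a41a followed Cyp3a16. It measured 2.56, 2.57 and 0.863 FPKM in NP zone 1 and 42.8, 40.9 and 39.9 in NP zone 3, with a mean 20.6 times lower in zone 1. At dpc8 zone 1 held 5.28, 3.71 and 1.17 against 79.5, 65.1 and 65.4, and at dpc16 it held 18.3, 23.7 and 14.4 against 76.3, 66.8 and 36.2, which was 3.18 times lower. The differences were -3.88 ± 0.42 (adjusted p = 2.31e-06) in NP mice, -4.14 ± 0.42 (1.03e-06) at dpc8 and -1.58 ± 0.42 (0.0624) at dpc16. With a replicate block within stage the dpc16 difference passed (-1.58 ± 0.37, adjusted p = 0.0191), as did the sum of Cyp3a41a and Cyp3a41b (-2.23, 0.00719) and the fit without the 6 libraries (-1.90, 0.0047).

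The middle zone was set against both ends. Zone 1 was lower than zone 2 in NP mice for Cyp3a16 (-4.43, adjusted p = 0.00129) and Cyp3a41a (-3.61, 5.16e-05), and at dpc8 as well (-4.31, 0.00258, and -3.42, 0.000176). These 2 of 9 members compare with 0.154% and 0.124% of all genes, and all 4 calls were lost when only the groups compared were fitted. Cyp2b13 at dpc8 (-2.09, adjusted p = 0.0855, no overlap) passed with a replicate block within stage (0.0288), with the replicate number as a fixed term (0.0251), with array weights (-1.88, 0.0253), without the 6 libraries (-1.90, 0.0453) and with the connective tissue covariate (-2.01, 0.0344). Over the stages, where 0.409% of all genes were lower in zone 1 than in zone 2, Cyp3a16 (-3.50, 6.43e-06), Cyp3a41a (-2.73, 3.34e-07) and Cyp2b13 (-1.10, 0.0433) were lower, and the Cyp2b13 call was lost in 21 of 27 fits without 1 library and in 4 of 11 other settings. At dpc16 no member passed between zones 1 and 2 in the limma fit, while Cyp3a41a did with array weights (-1.42, 0.0326). Between zones 2 and 3 no member passed at any stage in the limma fit. In NP mice, Cyp2b9 was higher in zone 2 without overlap and Cyp3a11 lower, against 6.17% and 5.5% of all genes. Zone 2 was below zone 3 without overlap for Cyp2b13, Cyp3a16 and Cyp3a41a at dpc8, against 7.3% of all genes, and for Cyp2b13 and Cyp3a16 at dpc16, against 3.72%. Cyp2b13 at dpc16 (mean 3.83 FPKM in zone 2 and 14.2 in zone 3, log2 difference -1.64, adjusted p = 0.19) passed with array weights (-1.63, 0.00835), without the 6 libraries (-1.68, 0.0442) and with the connective tissue covariate (-1.68, 0.0484). Over the stages, Cyp3a16 between zones 2 and 3 (-1.18, 0.164) passed with array weights (-1.35, 0.0114) and without the 6 libraries (-1.37, 0.013), and Cyp2b13 (-0.89, 0.105) passed with a replicate block within stage (0.0445) and without the 6 libraries (-0.97, 0.0116). Whether the step from zone 1 to 2 exceeded that from zone 2 to 3 was not tested.

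Cyp2b13 was graded in the same direction in the pregnant stages. Its zone 1 mean was 1.89 times lower than that of zone 3 in NP mice, where the libraries overlapped, 8.46 times at dpc8 and 4.73 times at dpc16, with no overlap at either. The differences were -3.09 at dpc8 (adjusted p = 0.000207) and -2.02 at dpc16 (0.0169), and the latter was lost with only the groups compared (adjusted p = 0.0722) and without dpc16 zone 1 replicate 2, zone 3 replicate 1 or zone 3 replicate 3, with values of -2.31 to -1.61. Cyp2b10 pointed the other way, with zone 1 means 3.52, 1.95 and 5.71 times higher at the 3 stages, and its mean difference over stages of 1.67 ± 0.58 (adjusted p = 0.115) passed with a replicate block within stage (0.0234) and without the 6 libraries (2.13, 0.0403). Cyp3a11 had a mean difference of -1.37 ± 0.47 (0.104), which passed with the same block (0.024), and at dpc16 its difference of -1.93 (0.476) passed without the 6 libraries (-2.65, 0.0484). Cyp3a44 was lower in zone 1 than in zone 3 without overlap in NP mice (-1.34, 0.399) and at dpc8 (-1.03, 0.429), and the means were 422 and 398 FPKM at dpc16 (0.21, 0.965). Its difference between zones 1 and 2 in NP mice (-1.98, 0.2) passed with a replicate block within stage (0.0442). Over the stages, its difference between zones 1 and 2 (-0.87, 0.348) passed after rescaling (-0.95, 0.0418), with array weights (-0.93, 0.0157) and without the 6 libraries (-1.14, 0.0189), and that between zones 1 and 3 (-0.72, 0.211) passed after rescaling (-0.79, 0.0371), with array weights (-0.82, 0.00835) and without the 6 libraries (-0.85, 0.0338). Cyp2b9, Cyp3a13 and Cyp3a25 showed no call between zones in the limma fit.

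**Figure D3:**
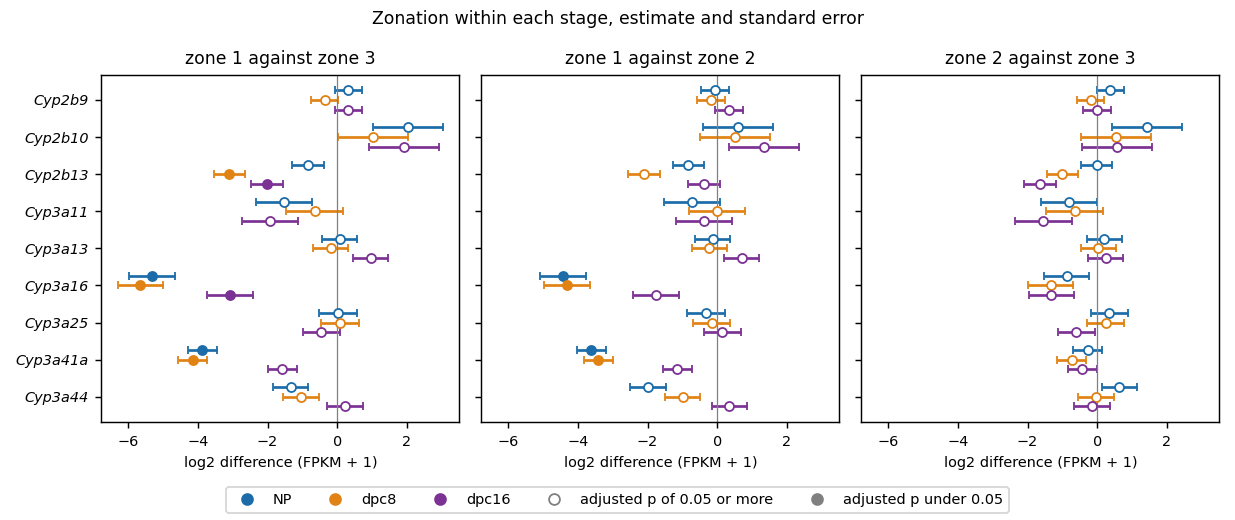
Log2 difference on the FPKM + 1 scale (horizontal) of each gene (vertical) between zones 1 and 3, zones 1 and 2, and zones 2 and 3, 1 panel each, with colours for stage, bars for the standard error and filled points for an adjusted p under 0.05. Cyp3a16 and Cyp3a41a lie far to the left in the first panels at NP and dpc8 and nearer to 0 at dpc16, and no point is filled in the panel of zones 2 and 3.

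Whether the change from NP differed between zones was tested directly, and no member passed. The change of Cyp3a41a was larger in zone 1 than in zone 3 by 2.30 ± 0.59 (limma adjusted p = 0.543), that of Cyp3a16 by 2.23 ± 0.93 (0.993) and that of Cyp3a44 by 1.55 ± 0.73 (0.993). At dpc8 the change of Cyp2b13 differed by -2.25 ± 0.64 (adjusted p = 1). In all, 0 of 54 such contrasts of the members passed in limma and 8 had an unadjusted p under 0.05. At dpc8 this was 1 member between zones 1 and 3, 0 between zones 1 and 2 and 0 between zones 2 and 3, against 2.36%, 2.14% and 2.86% of all genes, and at dpc16 it was 3, 3 and 1 members, against 3.16%, 4.29% and 2.47%. The count stayed at 0 under every setting tried.

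The order of the 9 group means differed between members. Over all genes tested, 1.61% of neighbouring pairs in the order were separated without overlap, and 11.5% of genes had at least 1 such pair. For Cyp3a16, 4 of 8 pairs were separated: dpc8 zone 3 (mean 619 FPKM) lay above dpc16 zone 3 (483), which lay above dpc8 zone 2 (251), and at the other end dpc16 zone 1 (55.5) lay above dpc8 zone 1 (13.3) and NP zone 1 (3.14). For Cyp3a44 the separated neighbours were dpc8 zone 3 (337) above dpc8 zone 1 (165), and NP zone 3 (69.2) above NP zone 1 (26.9). Cyp3a41a had NP zone 2 (35.9) above dpc16 zone 1 (18.8), and the latter above dpc8 zone 1 (3.39). Cyp2b13 had 1 such step, from dpc8 zone 2 (44.7) down to dpc16 zone 3 (14.2), and Cyp2b9 had 1, from NP zone 3 (278) down to dpc16 zone 1 (177). The order of Cyp2b10, Cyp3a11, Cyp3a13 and Cyp3a25 had no separated neighbours.

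The make-up of the summed Cyp3a FPKM, in which Cyp3a41a may be understated as given above, differed between stages. Cyp3a11 was the most abundant of the 6 Cyp3a members in all 9 NP and all 9 dpc8 libraries, but in 5 of 9 at dpc16, where Cyp3a44 led in the other 4. In zone 1, Cyp3a11 held 63.4%, 72.3% and 65.9% of the summed Cyp3a FPKM in NP mice and 42.3%, 15.9% and 24.7% at dpc16. Cyp3a44 held 3.28%, 3.22% and 2.34% in NP zone 1 and 30.5%, 39.2% and 35.3% at dpc16. The shares of the 2 stages did not overlap for either gene. At dpc16 the share of Cyp3a44 was lower towards the central vein, with 22%, 27.3% and 27% in zone 2 and 12.3%, 16.3% and 14.6% in zone 3. The summed FPKM of the 6 genes in zone 1 was 928 ± 374 (SD, n = 3) in NP mice, 2018 ± 1074 at dpc8 and 1247 ± 562 at dpc16, differences within the spread of the libraries.

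**Figure D4:**
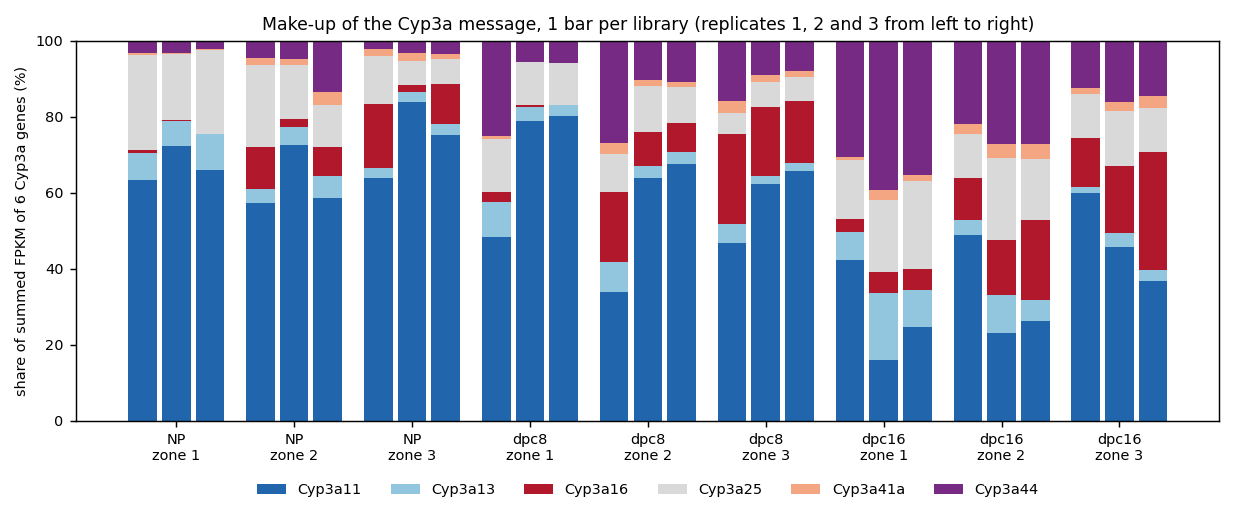
Share of the summed FPKM of the 6 Cyp3a members (vertical, percent) held by each member in each of the 27 libraries (horizontal, grouped by stage and zone, replicates 1 to 3 from left to right). In dpc16 zone 1 Cyp3a44 holds 30.5% to 39.2%, against 2.34% to 3.28% in NP zone 1.

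The genes around the members were read from gene lists. Of 5 other genes of both families, 2 were tested and both rose at dpc16 averaged over zones, Cyp3a41b (log2 fold change 2.38, limma adjusted p = 0.000142) and Cyp3a59, a near copy of Cyp3a25 (1.26, 0.0431). The receptors themselves did not pass: Nr1i3, which encodes CAR, was at -0.56 (0.145), Nr1i2, which encodes PXR, at -0.54 (0.243), and Por, the reductase that supplies P450 enzymes with electrons, at 0.11 (0.904). Of all 13 receptors, coregulators and redox partners, 1 rose (Cyb5r3, 0.78) and 3 fell (Cyb5b, -0.93, Ppargc1a, -0.88, and Nr3c1, -0.54), with a median of -0.39. Nr1i3 was lower in zone 1 than in zone 3 over the stages (-0.97 ± 0.24, adjusted p = 0.0145). It measured 72.4, 44.5 and 67.3 FPKM in NP zone 1 and 225, 83.3 and 127 in NP zone 3.

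Other known CAR and PXR targets moved both ways. Of 21 tested, 2 rose and 5 fell at dpc16, with a median of -0.55, while 5.65% of all genes rose and 6.15% fell around a median of -0.01. Aldh1a7 rose (3.04), whereas the bile acid and conjugate exporter Abcc3 (-3.47) and the Cyp2c enzymes Cyp2c37 and Cyp2c50 (both -3.14) fell, the Cyp2c genes being close copies. Shared reads were counted for the members only, and for no other gene of the lists named here and below. By zone, 8 of 21 were lower and 2 higher in zone 1 over the stages, where 5.59% of all genes differed, among them Cyp2a5 (-5.21), Gstm3 (-3.72), Cyp2c37 (-3.57) and Cyp2c50 (-3.36).

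Genes of growth hormone and prolactin signaling moved both ways, 3 of 10 higher and 2 lower at dpc16, with a median of 0.04. The receptor genes Ghr (2.93) and Prlr (2.66) and the feedback inhibitor Socs2 (0.90) rose, and the repressor Bcl6 (-1.37) fell. Of 8 other female-biased liver genes, 4 rose, A1bg (3.16), Sult3a1 (1.73), Cyp17a1 (1.72) and Cyp2a4 (1.10), and 0 fell, with a median of 1.04. Of 10 male-biased genes tested, 3 fell, Mup20 (-2.09), Cyp2u1 (-0.98) and Elovl3 (-0.97), and Serpina1e rose (2.35), with a median of -0.53. Among the members, 3 rose and 2 fell, with a median of 0.28. At dpc8, 1 gene of the CAR and PXR list, Akr1b7 (1.71, adjusted p = 0.0402), and 1 of the female-biased list, A1bg (3.83, 6.32e-07), had risen.

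**Figure D5:**
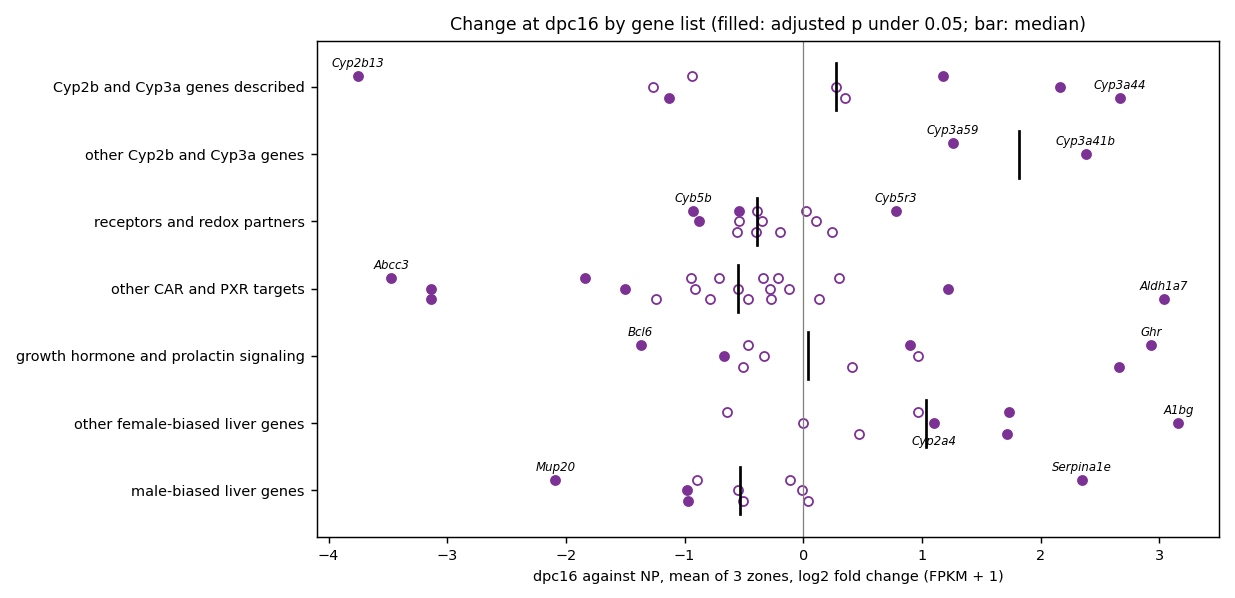
Log2 fold change on the FPKM + 1 scale at dpc16 against NP, averaged over zones (horizontal), of each tested gene of 7 lists (vertical), with filled points for an adjusted p under 0.05 and a bar for the median of the list. The medians run from -0.55 for other CAR and PXR targets to 1.82 for the other Cyp2b and Cyp3a genes, of which 2 were tested.

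The genes most like each member over the 27 libraries, by Pearson's r of log2(FPKM + 1), are given as a description, since the libraries share stages, zones and depth. Cyp3a16 was closest to Cyp3a41b (r = 0.947) and Cyp3a41a (0.942), and Cyp3a41a also to Sult3a1 (0.901). Cyp2b13 was closest to Car8 (0.922), Ugt1a6b (0.905) and Nrn1 (0.902), whereas Cyp2b9 was closest to Pbld2 (0.928), Cth (0.927) and Abcb11 (0.918). Cyp3a44 was closest to Fgl1 (0.837), Cyp3a13 to F9 (0.915), Cyp3a11 to Ugt2b35 (0.861), Cyp2b10 to Pdzk1ip1 (0.824) and Cyp3a25 to Tmem56 (0.792). Between members, Cyp2b13 and Cyp3a44 had r = -0.483, and Cyp2b13 and Cyp2b9 r = 0.684.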

How the data were processed

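RNA of 27 laser-microdissected liver samples was measured by RNA sequencing. The authors depleted ribosomal RNA, made libraries from 50 ng of RNA, trimmed the single-end reads, aligned them to mm10 with HISAT2 2.1.0 and GENCODE vM22, kept uniquely mapped reads and ran Cuffdiff (Cufflinks 2.2.1) over protein-coding genes. Its FPKM are the deposited values, and no later scaling is stated. Counts were not used here. Low values fell on steps of whole reads (94.8% to 99.4% within 0.1 reads). The steps would correspond to 7.53 to 33.4 M reads per library, median 16.4, if each library was scaled by its own read total. Whether it was is not stated, so these figures may be scaled totals.

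Groups and replicate numbers came from the sample titles. The tests were run in limma 3.58.1 (R 4.3.3) on log2(FPKM + 1), for genes that reached 1 FPKM in 3 or more libraries, with 1 mean for each of the 9 groups, 18 residual degrees of freedom, an intensity trend and robust settings. Limma replaced the study's Cuffdiff, which needs reads. Tests were two-sided, p-values received the Benjamini-Hochberg adjustment over all 12952 genes within each comparison, and the threshold was 0.05. Folds between means are ratios of mean FPKM, and log2(FPKM + 1) understates changes of low values. The procedure was tested on simulated data.

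All 9 members are named. From each other list the receptors, Por and up to 4 genes with the largest change past the threshold in a comparison are named, with 3 most similar genes per member. The members and lists were chosen with earlier results of these data known.

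Libraries of the same number were checked for pairing by the correlation of their deviations from group means. At dpc16 all 9 correlations between zones were over 0.1 (0.263 to 0.863, median 0.358), so these libraries were treated as paired by number. In NP mice 4 of 9 and at dpc8 5 of 9 were over 0.1. The fit with a replicate block within stage (correlation 0.193) nevertheless blocked all 3 stages. At dpc16 the pairs of zones 2 and 3 had the highest values, 0.632, 0.668 and 0.863. Replicate 3 of both zones was among the 6 libraries that stood apart. The check therefore cannot tell a shared animal from another likeness between libraries. Alternatives were another pseudocount, no filter, quantile normalization, rescaling to a common sum per library, array weights, only the groups compared, the replicate number as a fixed term, a connective tissue covariate, leaving out the 6 libraries with Y-linked FPKM, leaving out each library and, chosen after seeing the data, the sum of Cyp3a41a and Cyp3a41b. Gene positions, transcripts and shared windows are from GENCODE vM21, not vM22, and upstream sequences from the RefSeq table of GRCm38.p6, in which all 9 members were found.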

Additional observations from a re-analysis of the deposited data

How the results depend on the processing

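No call of a member changed direction. Of 38 calls refitted under 11 other settings, 398 of 418 fits kept the call and 20 lost it, and of 1026 fits without 1 library 65 lost it. The causes of these changes were not tested.

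Against the 1 pair of member and zone called at dpc8 against NP, the count was 0 with a pseudocount of 0.1, without the filter or with only the groups compared, 2 with quantile normalization, with the replicate block within stage, without the 6 libraries named above or with the connective tissue covariate, 3 after rescaling to a common sum and 4 with array weights, and 0 to 2 without 1 library. Averaged over zones it was 2 members, and 1 with the pseudocount of 0.1, without the filter, with only the groups compared or with the replicate block within stage, 3 with array weights, with the replicate number as a fixed term or with the covariate, and 1 to 2 without 1 library. At dpc16 against NP, 7 pairs passed, 5 with only the groups compared, 10 without the 6 libraries, 11 after rescaling, with array weights or with the covariate, and 6 to 8 without 1 library. Averaged over zones 5 members passed, also in each fit without 1 library, 6 after rescaling, with the covariate or with the fixed replicate term, and 7 with array weights or without the 6 libraries.

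For dpc16 against dpc8, 3 pairs passed, 1 with only the groups compared, 5 with the replicate block as a fixed term, 8 after rescaling, 9 with the covariate or without the 6 libraries and 14 with array weights, and 3 to 5 without 1 library, with 5 without dpc8 zone 1 replicate 1. Averaged over zones 3 members passed, 5 without the 6 libraries and 6 with array weights, and 3 to 5 without 1 library. Between zones 1 and 3, 7 pairs passed and 5 to 8 without 1 library. Array weights added Cyp3a44 at dpc8 and Cyp3a11 and Cyp3a41a at dpc16. The fit without the 6 libraries and the covariate each added Cyp3a11 and Cyp3a41a at dpc16. Rescaling, both replicate settings and the sum with Cyp3a41b each added Cyp3a41a at dpc16. With only the groups compared, Cyp2b13 at dpc16 was lost. Over the stages 3 members passed, 5 after rescaling, with the replicate block within stage or without the 6 libraries and 6 with array weights, and 3 to 4 without 1 library. Between zones 2 and 3, where 0 pairs passed, 1 did with array weights, without the 6 libraries or with the covariate. Without NP zone 2 replicate 2, the difference of Cyp3a16 between zones 1 and 2 in NP mice was -5.11. The contrasts of the pregnancy change between zones gave 0 throughout.

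With 3 libraries per group, the standard error of a zone comparison was 0.42 for Cyp3a41a and 1.01 for Cyp2b10.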
